A study of Mus musculus and Homo sapiens
Mus musculus with 14 samples.

Results

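The neurofilament and ganglion axon genes are 10 genes whose products build or mark the axon of the retinal ganglion cell: Nefl, Nefm, Nefh, Ina, Prph, Gap43, Thy1, Sncg, Tubb3 and Tppp3. They were taken by symbol, and the 10 were found among the 24460 genes listed for retinal layers and among the 18415 genes listed for amacrine cells. The study used Light-Seq, in which RNA in a fixed section is reverse transcribed in place, and light then attaches a DNA barcode to the cDNA in regions chosen under the microscope. In the first retinal experiment, 4 sections from 1 wild-type CD1 mouse in the third postnatal week each gave a library of the ganglion cell layer (GCL), the bipolar cell layer (BCL) and the outer nuclear layer (ONL). In the second, 5 sections of wild-type CD1 retina each gave a library of amacrine cells stained for tyrosine hydroxylase (TH+, the dopaminergic amacrine cells, of which a section holds only a few) and a library of unstained amacrine cells (TH−). The labels name no mutation, transgene or drug in any group. The amacrine cell layer was not barcoded in the first experiment, the BCL also holds horizontal cells and Müller glia, and the GCL also holds displaced amacrine cells.

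Ganglion cells are the output neurons of the retina, and their axons form the optic nerve. Such long axons are filled with neurofilaments, heteropolymers of a light, a medium and a heavy subunit (Nefl, Nefm and Nefh) that in the central nervous system also take up alpha-internexin (Ina), and they run along microtubules that contain neuron-specific tubulin (Tubb3). Antibodies and promoters for Thy1, Sncg and the neurofilaments are in wide use as ganglion cell markers. Amacrine and bipolar cells are local interneurons that send no axon out of the retina, and photoreceptors, the cells of the ONL, send a short one.

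The genes sit on several chromosomes. On GRCm39, Nefl lies at chr14:68321268-68326544 on the plus strand and Nefm reaches from 68320039 to 68362305 on the minus strand of the same chromosome. The canonical transcripts of Nefl and Nefm are 30187 bases apart with 0 coding genes between them, but a long annotated Nefm transcript runs across Nefl and shares 1152 exon bases with it. Nefh lies at chr11:4888740-4898130 on the minus strand and Ina at chr19:47003069-47013770 on the plus strand. Canonical transcripts of Nefl and Nefh have 4 exons and those of Nefm and Ina have 3, whereas Prph, at chr15:98952872-98956862, has 9. Exons also overlap a gene on the opposite strand in Nefm (1117 bases, with the noncoding A230070E04Rik), Nefh (861 bases, with Ap1b1), Ina (526 bases, with Nt5c2), Sncg (314 bases, with Mmrn2) and Tppp3 (527 bases, with a noncoding gene). These overlaps come from a later annotation than the one used for counting, and their part in the counts was not tested.

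The 200 bases before the start of Nefh and Gap43 are shown to set side by side the upstream sequence of 2 genes that were each higher in the GCL. Capitals mark matches, on either strand, to a TATA box (letters TATAAA), a GC box bound by Sp1 (letters GGGCGG), an E-box (letters CACGTG), a cyclic AMP response element (letters TGACGTCA) or a homeodomain core (letters TAATTA). Sequences were read from GRCm39, 5′ to 3′ on the strand of the gene. The windows are chr11:4898131-4898330 (minus) for Nefh and chr16:42161087-42161286 (minus) for Gap43.
Nefh: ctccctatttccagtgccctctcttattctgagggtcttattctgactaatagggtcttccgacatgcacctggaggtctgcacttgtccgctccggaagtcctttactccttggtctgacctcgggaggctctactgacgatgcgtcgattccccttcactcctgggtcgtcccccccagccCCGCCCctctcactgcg
Gap43: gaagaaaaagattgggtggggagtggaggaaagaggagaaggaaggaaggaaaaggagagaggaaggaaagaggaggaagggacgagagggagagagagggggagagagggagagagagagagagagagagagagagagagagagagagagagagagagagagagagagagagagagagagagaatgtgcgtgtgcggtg
The Nefh window holds a GC box on the other strand, and the Gap43 window holds none of the 5 motifs but a long run of alternating g and a. Of 21757 coding genes, 34.8% have a GC box in the same window, 9.57% a TATA box, 5.43% an E-box, 1.59% the cyclic AMP response element and 3.95% the homeodomain core. No match means only that these letters are missing from this window.

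Unique molecular identifiers (UMIs), which count each captured cDNA once, numbered 585655 to 785013 in the GCL libraries, 193869 to 208437 in the BCL and 310228 to 801105 in the ONL. TH+ libraries held 30317 to 87449 UMIs and TH− libraries 134394 to 200344. Levels are given as CPM, the UMIs of a gene divided by all UMIs of its library and scaled to a total of 1000000. Differences between groups are log2 fold changes ± s.e. from edgeR's quasi-likelihood test, with p adjusted by Benjamini-Hochberg over all genes tested. The labelled layers held their own markers. The 9 rod genes followed made up 7.06% of ONL UMIs, 7 bipolar genes 0.634% of BCL UMIs and 5 ganglion cell genes 0.122% of GCL UMIs. Amacrine genes made up 0.141% of GCL UMIs. Markers also appeared outside their layer, with rod genes at 0.640% of GCL and 1.67% of BCL UMIs. Cone genes made up 0.180% of ONL UMIs, and starburst, endothelial, microglial and pigment epithelial genes 0.0144% or less in any layer. Since the 4 layer sections came from 1 animal, every s.d. and p for the layers describes spread between sections and not between mice. The amacrine sections were likewise technical replicates.

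The 10 genes together made up 0.768% ± 0.0427 (s.d., n = 4 sections) of GCL UMIs, 0.0854% ± 0.0112 of BCL UMIs and 0.0683% ± 0.0213 of ONL UMIs. Against the BCL, the test covered 9 genes and called each of them higher in the GCL, where 20.4% of all 11324 genes tested were called in that direction. Against the ONL, 9 of 9 were likewise higher in the GCL, against a background of 32.2%. The 10 genes were chosen with earlier results of these data known, so these counts are no independent test. The median log2 fold change over the 9 genes was 3.67 against the BCL and 3.35 against the ONL, beside 0.02 and -0.00 over all genes tested. In bulk libraries of this kind, fewer cells of a type and less RNA per cell cannot be told apart. Prph had too few UMIs for the test and is described by its counts.

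**Figure D1:**
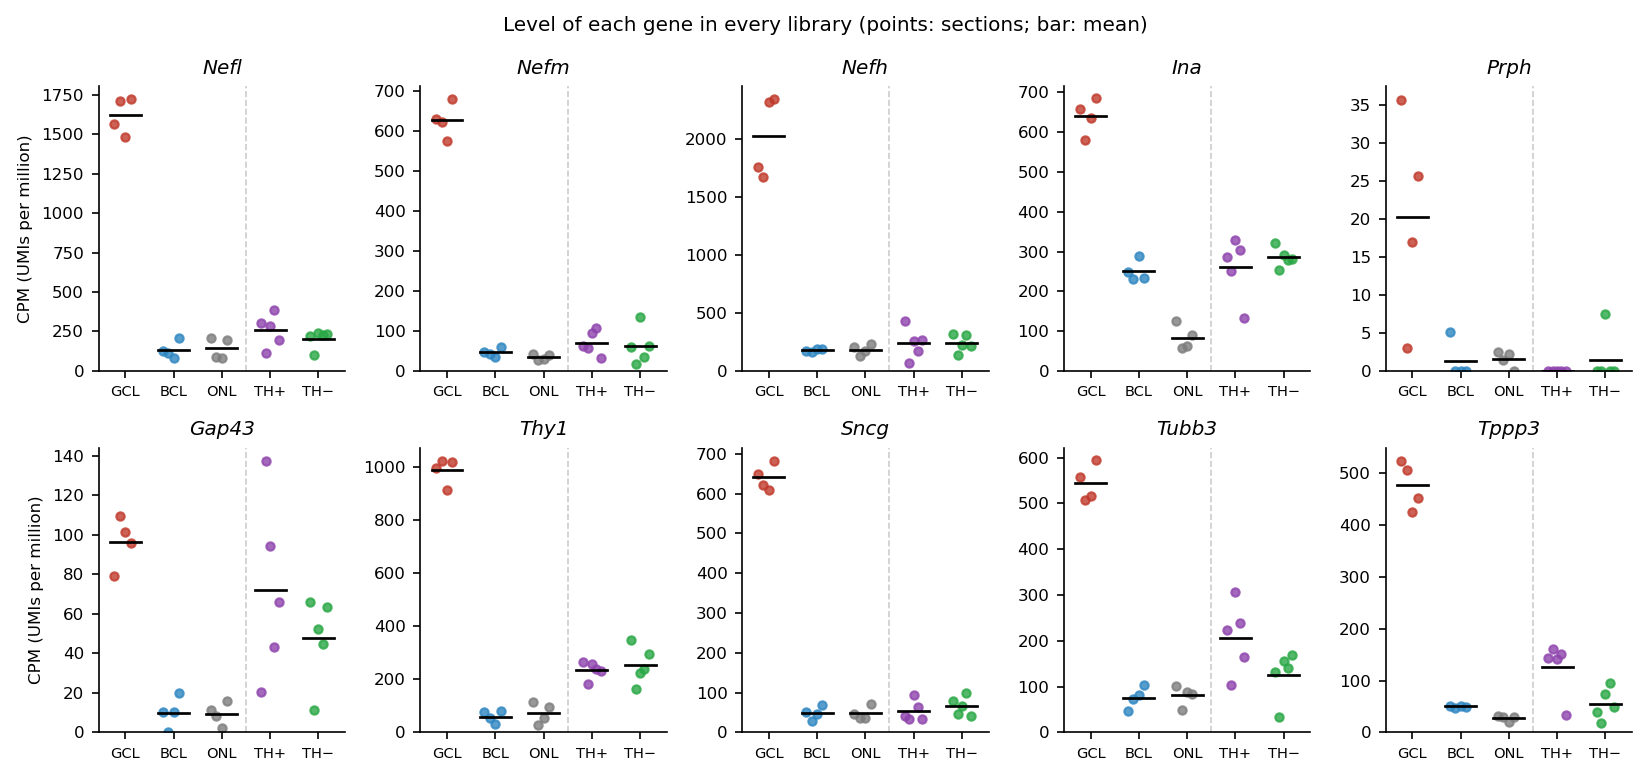
Level of each of the 10 genes (vertical axis, CPM, starting at 0 and scaled per gene) in every library of the GCL, BCL, ONL, TH+ and TH− groups. Each point is 1 section and each bar the group mean, and the dashed line separates the layer experiment from the amacrine experiment. In each panel but that of Prph every GCL point lies above every BCL and ONL point, and the BCL points of Ina lie well above those of the ONL.

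The light subunit gene Nefl, without which the filament cannot assemble, reached 1566, 1712, 1486 and 1725 CPM in the GCL of sections 1 to 4. The same sections gave 129, 115, 81.3 and 208 CPM in the BCL and 206, 88.5, 82.2 and 193 CPM in the ONL. The GCL values lay far above both other layers, whose ranges overlapped each other. Nefl was higher in the GCL by 3.77 ± 0.19 (adjusted p = 3.78e-23, edgeR) than in the BCL and by 3.35 ± 0.16 (adjusted p = 6.90e-25) than in the ONL.

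The medium subunit gene Nefm gave 631, 623, 576 and 679.6 CPM in the GCL, 46.4, 43.2, 35.6 and 59.3 CPM in the BCL and 41.2, 26.3, 29.7 and 38.7 CPM in the ONL. The GCL stood apart again, and 2 of the ONL libraries fell below every BCL library. Its difference of 4.03 ± 0.15 from the ONL (adjusted p = 2.63e-29, edgeR) was the largest of the 9 genes in that comparison, and that from the BCL was 3.92 ± 0.18 (adjusted p = 6.56e-25).

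The heavy subunit gene Nefh, whose long phosphorylated tail spaces filaments in mature axons, gave 1758, 1674, 2322 and 2344 CPM in the GCL. Sections 3 and 4 were higher than sections 1 and 2, a wider spread than that of Nefl. In the BCL Nefh gave 170.2, 163, 188 and 193 CPM, and in the ONL 202, 124, 173 and 229 CPM. The 2 outer layers overlapped, while the GCL was higher by 3.67 ± 0.16 than the BCL (adjusted p = 2.18e-26, edgeR) and by 3.34 ± 0.14 than the ONL (adjusted p = 8.32e-28).

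Alpha-internexin, Ina, departed from this pattern. Its GCL values were 659, 581, 635 and 685 CPM, its BCL values 248, 230.3, 289.6 and 232 CPM, and its ONL values 125, 58.1, 61.6 and 90.3 CPM. The 3 layers did not overlap, with the GCL highest and the ONL lowest. The difference between GCL and BCL was 1.52 ± 0.15 (adjusted p = 7.96e-13, edgeR), the smallest of the 9 genes, whereas that between GCL and ONL was 2.73 ± 0.14 (adjusted p = 3.30e-23).

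Peripherin, Prph, an intermediate filament of neurons with axons in peripheral nerves and not to be confused with the photoreceptor gene Prph2, was rare. It was counted 28, 2, 11 and 15 times in the GCL, 1, 0, 0 and 0 times in the BCL and 2, 1, 1 and 0 times in the ONL. In CPM the GCL values were 35.7, 3.00, 16.9 and 25.6, so section 2 of the GCL, at 3.00 CPM, overlapped section 1 of the BCL, at 5.16 CPM on 1 UMI. Pooled over sections the ratio of GCL to BCL was 16.7 (exact 95% interval 2.88 to 671, counting error only) and that of GCL to ONL was 11.8 (4.37 to 44.9).

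Gap43, a growth cone membrane protein that is high in growing axons, had the lowest level per length of the 9 tested genes in the GCL. It gave 79.0, 109, 101 and 95.6 CPM in the GCL, 10.3, 0, 10.2 and 19.8 CPM in the BCL and 11.2, 8.30, 2.28 and 16.1 CPM in the ONL. The BCL values rest on 8 UMIs in all, and the 0 of section 2 allows a level of up to 14.4 CPM. Gap43 was higher in the GCL than in the BCL by 3.39 ± 0.38 (adjusted p = 7.67e-11, edgeR) and than in the ONL by 3.17 ± 0.27 (adjusted p = 6.27e-15).

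Thy1, a glycolipid-anchored surface protein, gave 999, 1025, 914 and 1019 CPM in the GCL, 77.4, 52.8, 30.5 and 79.1 CPM in the BCL and 114, 27.7, 54.8 and 96.7 CPM in the ONL. The GCL sections were close to each other, and the outer layers overlapped. Thy1 had the largest difference from the BCL, 4.21 ± 0.22 (adjusted p = 1.05e-22, edgeR), and was 3.60 ± 0.17 above the ONL (adjusted p = 3.71e-25).

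Sncg, gamma-synuclein, a small protein of axons and their endings, gave 648, 622, 609 and 683 CPM in the GCL, 28.8 to 69.2 CPM in the BCL and 36.5 to 70.9 CPM in the ONL. The GCL was higher by 3.88 ± 0.18 than the BCL and by 3.65 ± 0.15 than the ONL (adjusted p = 3.04e-24 and 4.94e-28, edgeR). Sncb, beta-synuclein, was higher in the GCL than in the BCL by 0.83 ± 0.12 (adjusted p = 5.66e-08, edgeR).

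Tubb3, neuronal beta-tubulin, gave 558, 508, 516 and 594 CPM in the GCL, 46.4 to 104 CPM in the BCL and 49.8 to 101 CPM in the ONL. The outer layers had almost the same range. It was higher in the GCL by 3.00 ± 0.18 than in the BCL and by 2.59 ± 0.14 than in the ONL, the smallest difference from the ONL among the 9 genes (adjusted p = 4.32e-20 and 1.28e-22, edgeR).

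Tppp3, a small protein that binds and bundles microtubules, gave 524, 505, 424 and 452 CPM in the GCL, 51.6, 48.0, 50.8 and 49.4 CPM in the BCL and 31.2, 30.4, 20.5 and 29.0 CPM in the ONL. The BCL values were nearly equal, each on 10 UMIs, and lay above each ONL value. The GCL was higher by 3.42 ± 0.18 than the BCL and by 3.88 ± 0.15 than the ONL (adjusted p = 1.36e-22 and 2.37e-28, edgeR).

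The outer layers differed from each other in 1 of the 9 genes. Ina was higher in the BCL than in the ONL by 1.20 ± 0.19 (adjusted p = 3.59e-07, edgeR), higher in 4 of 4 sections, where 18.2% of all genes were called higher in the BCL and 18.5% higher in the ONL. Log2 fold changes of the other 8 lay between -0.61 ± 0.31 for Thy1 and 0.47 ± 0.29 for Tppp3 (adjusted p = 0.123 and 0.222). Without section 2, Thy1 passed as well, at -0.87 (adjusted p = 0.0201).

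**Figure D2:**
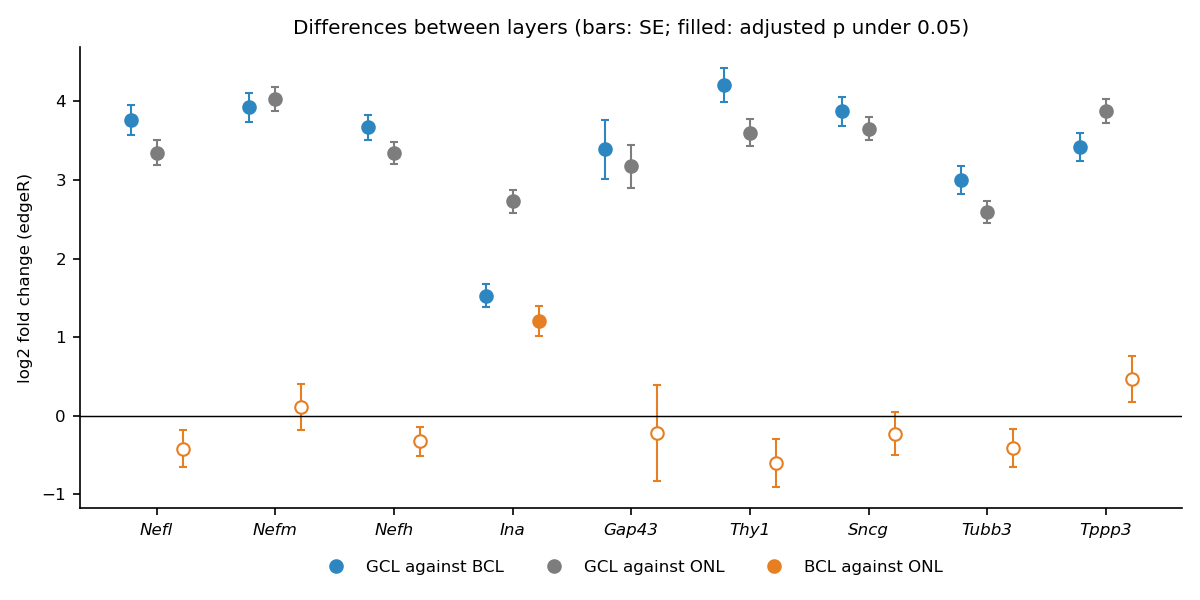
Log2 fold change of the 9 tested genes (vertical axis) for GCL against BCL, GCL against ONL and BCL against ONL, with bars for the s.e. and filled points for adjusted p under 0.05. Blue and grey points lie between 1.52 and 4.21, and among the orange points only that of Ina, at 1.20, is filled.

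How far the level fell outside the GCL was similar for most of the genes. Mean CPM in the BCL was 8.22% of that in the GCL for Nefl, 7.35% for Nefm, 8.82% for Nefh, 7.62% for Sncg and 6.06% for Thy1. It was 10.4% for Gap43, 10.5% for Tppp3 and 13.9% for Tubb3, and 39.1% for Ina. In the ONL the shares ran from 5.41% for Nefm to 14.9% for Tubb3, with Ina at 13.1%. Nuclear and other markers that define ganglion cells fell to like levels. Rbpms was at 8.25% of its GCL level in the BCL and 7.90% in the ONL, and the 5 ganglion cell markers spanned 3.74% to 8.48% in the BCL and 4.12% to 10.9% in the ONL. Whether signal from ganglion cells makes up the low BCL and ONL levels was not tested. The BCL level of Ina lay above the BCL range of the markers, and so, less far, did those of Tubb3, Tppp3, Gap43 and Nefh. In the ONL, Tubb3 at 14.9% and Ina at 13.1% lay above the ONL range of the markers.

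Markers of horizontal cells, interneurons that lie in the BCL, were also higher there. The 4 markers made up 0.0193% to 0.0295% of UMIs in the BCL libraries, 0.00137% to 0.00228% in the ONL and 0.00154% to 0.00768% in the GCL, and 4 of 4 had UMIs in each layer. Lhx1 and Gja10, which define these cells, were higher in the BCL than in the ONL by 4.14 ± 0.56 and 3.65 ± 0.85 (adjusted p = 1.59e-08 and 3.98e-04, edgeR). Of 7 amacrine markers, which made up 0.0584% to 0.0776% of BCL and 0.0235% to 0.0434% of ONL UMIs, 2 were called higher in the BCL (Pax6 and Tfap2b), 1 lower (Slc6a9) and 4 in neither direction, beside 18.2% and 18.5% over all genes. Markers of the main BCL cells were higher there as well, 7 of 7 for bipolar cells (median log2 fold change 3.61) and 6 of 6 for Müller glia (2.77), beside 4 of 4 for horizontal cells (3.52). The part of any of these cells in the Ina level was not tested.

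**Figure D3:**
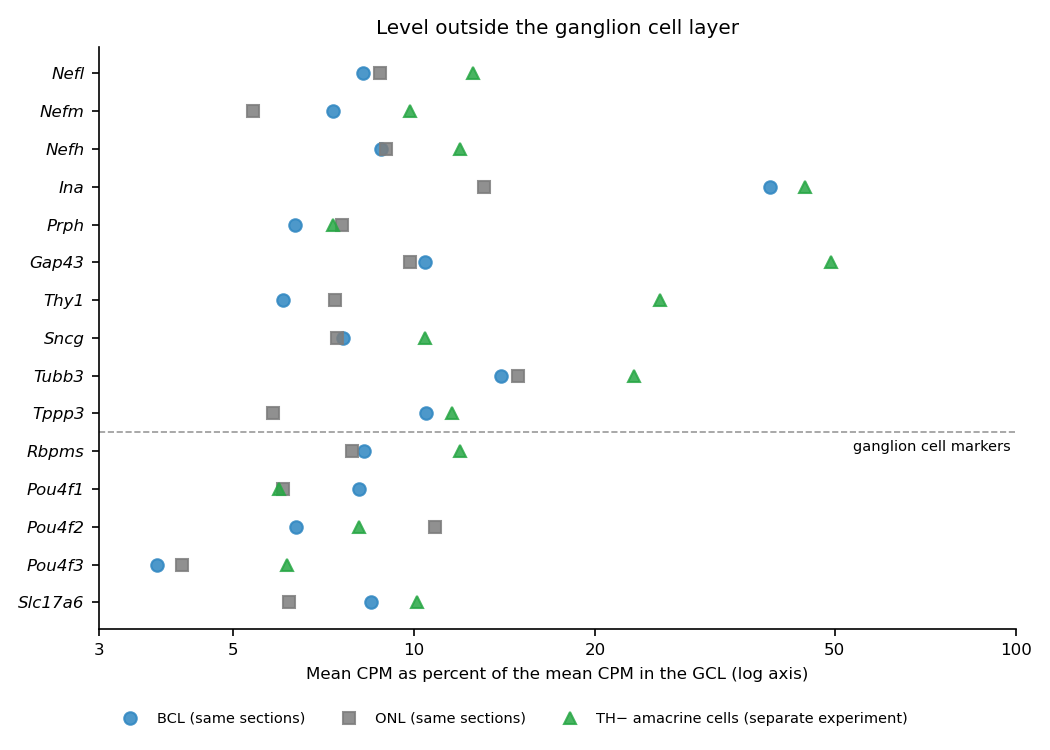
Mean CPM in the BCL (circles), ONL (squares) and TH− amacrine cells (triangles) as percent of the mean CPM in the GCL (horizontal axis, logarithmic) for the 10 genes and, below the dashed line, 5 ganglion cell markers. Most circles and squares lie between 5% and 15%, Ina has a circle at 39.1%, and the triangles of Ina, Gap43, Thy1 and Tubb3 lie at 23.2% or more.

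Levels of different genes can be compared only per length, and here RPKM was computed with the gene length deposited by the authors. In the GCL the order was Sncg (752 ± 38.5 RPKM, s.d., n = 4), Nefh (507 ± 89.7), Nefl (479.9 ± 34.2), Thy1 (330.4 ± 17.1), Tubb3 (291 ± 21.3), Tppp3 (258 ± 24.9), Ina (197 ± 13.6), Nefm (108 ± 7.31), Gap43 (63.3 ± 8.46) and Prph (10.2 ± 6.93). Section ranges overlapped between Nefh and Nefl, between Thy1 and Tubb3, and between Tubb3 and Tppp3, while other neighbours in this order were separate. The place of Sncg rests on its deposited length of 852 bases. With the 4645 bases of its canonical transcript in the later annotation, it came to 138 RPKM and rank 7. Canonical lengths put Thy1 (524 ± 27.1 RPKM) and Nefh (497 ± 87.9) first, with overlapping s.d., and moved Ina from rank 7 to 4 (196 RPKM). Nefm then came to 188 RPKM, Tubb3 to 169.7 and Tppp3 to 113 RPKM, so that the means of Tubb3 and Tppp3 fell below those of Ina and Nefm.

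The primer used for reverse transcription ends in G bases and so favours CCC in the RNA. The canonical transcript of Nefl holds 10.2 CCC triplets per kb and that of Nefm 11.7, less than the median of 18.1 over 11087 tested genes. Nefh holds 27.5 and Thy1 40.8 per kb, more than 81.6% and 97.3% of those genes. The part of priming in the levels was not tested. Whether the layers use the same transcripts of a gene, and so the same CCC sites, was not tested either.

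Besides the level, the makeup of the filament can be followed as the share of each subunit in the summed UMIs per kb of Nefl, Nefm and Nefh. In the GCL the shares were 44.0% ± 4.28 for Nefl, 9.94% ± 0.837 for Nefm and 46.1% ± 5.03 for Nefh (s.d., n = 4). The BCL gave 41.7% ± 8.24, 8.66% ± 0.520 and 49.7% ± 8.53, and the ONL 43.6% ± 7.73, 6.48% ± 0.858 and 49.97% ± 7.15. Shares of Nefl and Nefh overlapped in the 3 layers. Nefm had 10.8%, 10.4%, 8.89% and 9.68% of the triplet in the GCL, 9.04%, 9.07%, 7.96% and 8.55% in the BCL and 5.52% to 7.34% in the ONL. Its ONL values lay below every value of both other layers, by 3.47 percentage points on average from the GCL and 2.18 from the BCL. These 2 differences gave p = 0.0286 each (exact permutation test, two-sided, the smallest p that 4 against 4 allow) and missed the threshold after adjustment over the 12 shares compared (adjusted p = 0.171). With canonical transcript lengths the differences were 5.40 and 3.43 points, and per CCC triplet 6.09 and 4.26, in the same direction. With libraries of a section kept together as pairs, both gave p = 0.125 (exact sign-flip permutation test), the smallest that 4 pairs allow.

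Ina was then set against the triplet, a comparison chosen after its levels had been seen. Its share in the summed UMIs per kb of the 4 subunits was 16.7%, 14.8%, 14.9% and 14.8% in the GCL, 46.2%, 46.3%, 53.6% and 37.4% in the BCL and 24.5%, 22.5%, 20.7% and 18.7% in the ONL. The 3 layers did not overlap. Means differed by 30.6 percentage points between BCL and GCL, by 24.3 between BCL and ONL and by 6.28 between ONL and GCL (exact permutation test, two-sided, p = 0.0286 each, the smallest possible, and adjusted p = 0.0381 over 4 comparisons). Kept in pairs by section, each gave p = 0.125 (exact sign-flip permutation test) and missed the threshold. The mean share of Ina was 15.3% ± 0.945 in the GCL, 45.9% ± 6.64 in the BCL and 21.6% ± 2.48 in the ONL (s.d., n = 4).

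**Figure D4:**
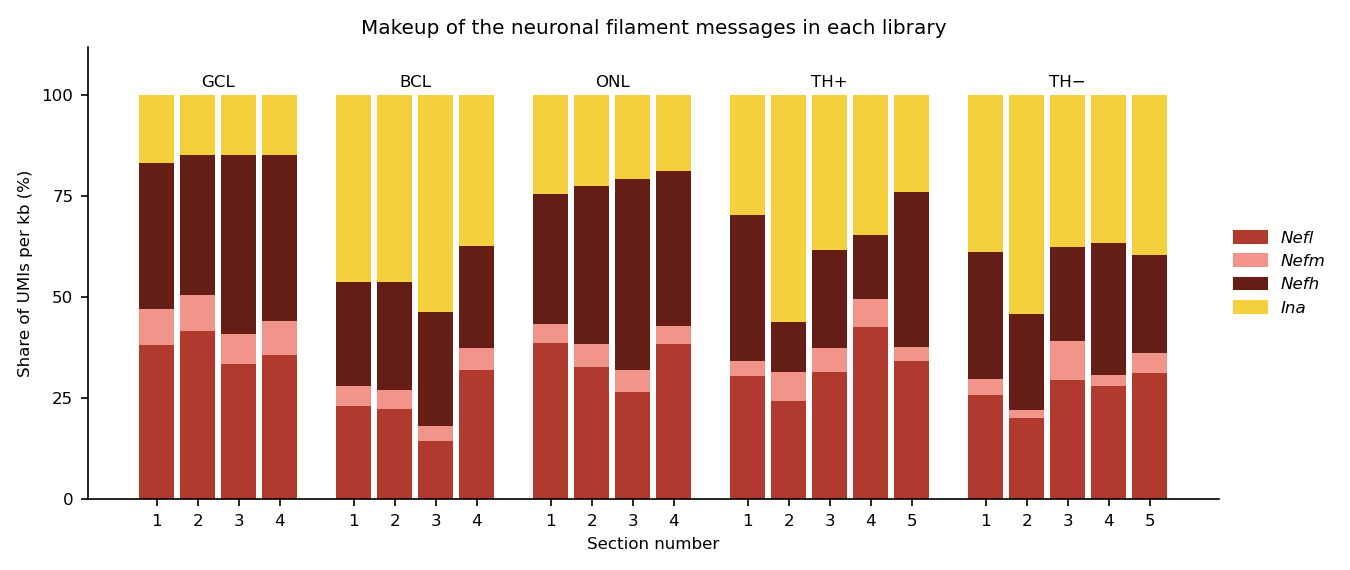
Share of Nefl, Nefm, Nefh and Ina in their summed UMIs per kb (vertical axis, percent) for every section (horizontal axis) of the 5 groups. The yellow part, Ina, is 14.8% to 16.7% in the GCL, 37.4% to 53.6% in the BCL, 18.7% to 24.5% in the ONL and 23.8% to 56.0% in the amacrine libraries.

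In the amacrine experiment, which was prepared and sequenced apart from the layers, the 10 genes made up 0.152% ± 0.0360 of TH+ and 0.134% ± 0.0321 of TH− UMIs (s.d., n = 5). The TH− means are set beside the GCL means of the layer experiment with no test. Gap43 was at 49.3% of its GCL level, Ina at 44.6%, Thy1 at 25.7% and Tubb3 at 23.2%. Nefl, Nefm, Nefh, Sncg and Tppp3 were at 9.84% to 12.5%, and Prph, on 1 UMI, at 7.33%. Ganglion cell markers in the same libraries stood at 5.97% (Pou4f1) to 11.9% (Rbpms), and amacrine markers at 169% (Pax6) to 1504% (Slc6a9) of their GCL level.

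Between TH+ and TH− cells edgeR called 0 of the 9 genes tested, where 0.830% of 6021 genes were called, and DESeq2 also called 0. The smallest p before adjustment were 1.93e-03 for Tppp3 and 0.0482 for Tubb3 (edgeR). Th itself was higher in TH+ cells by 4.22 ± 0.32 (adjusted p = 5.53e-15, edgeR), and the 5 dopaminergic markers made up 0.325% of TH+ and 0.0187% of TH− UMIs, with Slc6a3 and Ddc at 0 in TH−. In the TH+ libraries of sections 1 to 5 Tppp3 gave 143, 160.1, 141, 151 and 33.0 CPM, and in the TH− libraries 39.4, 17.4, 74.4, 94.8 and 49.3 CPM. The TH+ value exceeded the TH− value in 4 of 5 sections, and section 5, with 1 UMI in its TH+ library, went the other way. The fit gave 1.26 ± 0.38 (adjusted p = 0.122, edgeR), and with the section as a block, which pairs the libraries of a section, 1.33 ± 0.36 (adjusted p = 0.0145). Over the other alternatives adjusted p ran from 0.0892 to 0.466. The 9 rod genes made up 1.49% to 3.84% of TH+ and 0.858% to 2.23% of TH− UMIs, 9 of 9 had UMIs in both, and among them Sag and Prph2 were called higher in TH+. Their part in this difference was not tested.

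Tubb3 gave 225, 103, 306, 238 and 165 CPM in TH+ and 131, 34.7, 156, 139.8 and 169 CPM in TH− libraries. It too was higher in TH+ cells in 4 of 5 sections, and the difference of 0.65 ± 0.32 did not pass (adjusted p = 0.557, edgeR). Gap43 gave 20.4, 137, 94.1, 43.2 and 66.0 CPM in TH+ libraries on 1 to 12 UMIs, and 65.7, 11.6, 52.1, 44.9 and 63.4 CPM in TH− libraries. Sections 2, 3 and 5 of TH+ lay above every TH− value and section 1 within the TH− range, as did section 4 (0.78 ± 0.45, adjusted p = 0.656, edgeR). Without section 2 the difference was -0.07.

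**Figure D5:**
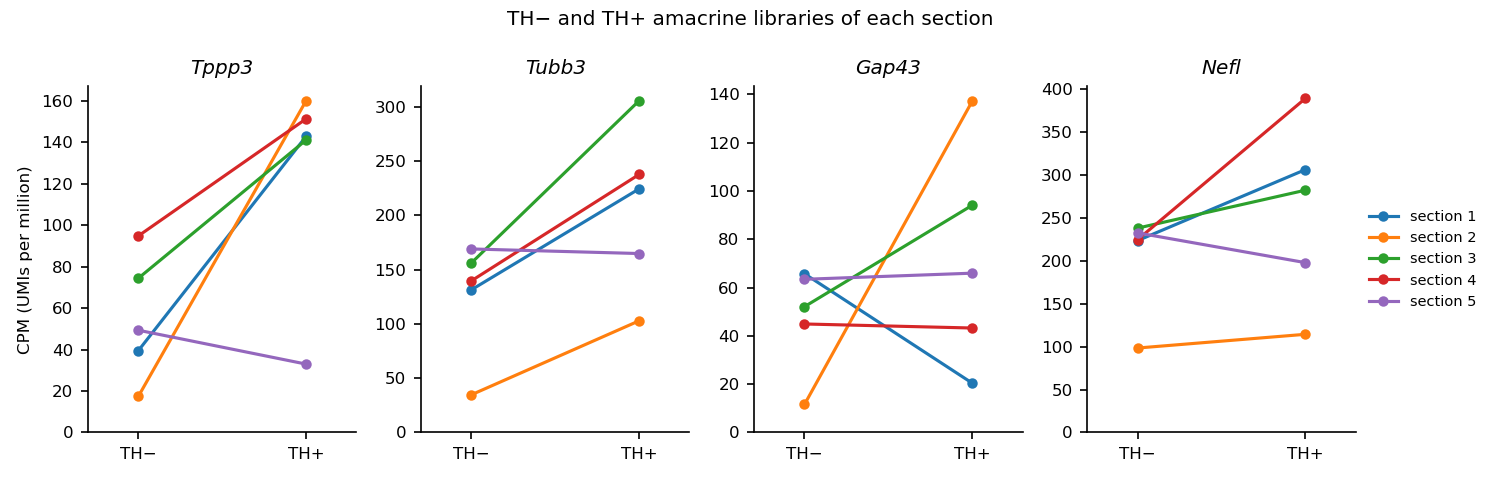
CPM of Tppp3, Tubb3, Gap43 and Nefl (vertical axes, from 0) in the TH− and TH+ library of each section, joined by a line. Tppp3 rises from TH− to TH+ in sections 1 to 4 and falls in section 5, while the lines of Gap43 cross.

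For the filament genes the amacrine groups overlapped. Nefl gave 306, 114, 282, 389 and 198 CPM in TH+ and 224, 98.4, 238, 225 and 233 CPM in TH− libraries (0.28 ± 0.27, adjusted p = 0.855, edgeR). Nefh had means of 239 ± 133 and 241 ± 75.7 CPM (s.d., n = 5), Nefm of 70.7 ± 30.2 and 61.8 ± 44.5 CPM, and Ina of 260.3 ± 77.1 and 286 ± 24.3 CPM, with log2 fold changes of -0.15 ± 0.29, 0.27 ± 0.47 and -0.10 ± 0.22. Thy1 and Sncg gave -0.14 ± 0.25 and -0.41 ± 0.45. Prph was counted 0 times in 255496 TH+ UMIs, which allows up to 11.7 CPM. The shares of the 3 subunits overlapped as well (Nefl 51.9% ± 8.75 against 45.8% ± 3.85, adjusted p = 0.571, exact permutation test, two-sided). The share of Ina among the 4 subunits was 36.5% ± 12.2 in TH+ and 41.3% ± 7.22 in TH− cells, a difference of -4.82 points (p = 0.460 and adjusted p = 0.460 over the same 4 comparisons as for the layers, exact permutation test, two-sided). Nefh rested on 6 to 21 UMIs per TH+ library, Nefm on 1 to 5 and Sncg on 1 to 4, which limits the differences that could be detected.

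The genes that surround these in the axon were followed as 9 lists, chosen with earlier results of these data known. They hold 62 genes, of which 60 could be tested. Against the BCL, 43 were higher in the GCL and 2 lower, where 20.4% and 16.1% of all genes were called. Against the ONL, 46 were higher and 6 lower (background 32.2% and 29.3%). Of the 50 tested in amacrine cells, edgeR called 0 between TH+ and TH−, where 0.830% of all genes were called.

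Among motors of axonal transport, 8 of 10 were higher in the GCL than in the BCL, led by Kif5a, the neuronal kinesin that carries neurofilaments (2.67 ± 0.15, adjusted p = 8.17e-21, edgeR), and Klc2, a kinesin light chain (1.68 ± 0.15). The list's median was 1.02. The 5 spectrin and ankyrin genes were each higher, among them Ank3, which organises the axon initial segment (1.55 ± 0.12), and Sptbn1 (1.24 ± 0.11). Of the adhesion molecules 6 of 8 were higher, with L1cam at 3.26 ± 0.19 and Ncam2 at 2.96 ± 0.23. The 4 of 5 growth-associated proteins that were higher include Nrn1 (4.12 ± 0.27) and Basp1 (2.25 ± 0.17), a relative of Gap43 in function. These lists had medians between 1.05 and 2.25, beside 0.02 over all genes.

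Tubulins other than Tubb3 were higher in 7 of 8 cases, with Tuba4a at 2.24 ± 0.22 and Tubb4a at 1.14 ± 0.13. Microtubule-associated proteins divided, with Map1a (2.39 ± 0.14) and Map1b (1.503 ± 0.11) among 4 higher and Map4, which is found in many tissues, lower (-0.37 ± 0.10, adjusted p = 3.15e-03, edgeR). Between GCL and ONL Map1b was not called (-0.12 ± 0.11, adjusted p = 0.318). Linkers and regulators of the filament were higher in 4 of 7 cases, including the cross-linkers Plec (1.48 ± 0.18) and Dst (1.08 ± 0.13).

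Other intermediate filaments showed both directions. Vim, the filament of Müller glia, was lower in the GCL than in the BCL (-1.90 ± 0.18, adjusted p = 6.69e-13, edgeR), where Müller glia markers made up 0.685% of UMIs against 0.139% in the GCL. Gfap, the filament of astrocytes, which lie among the ganglion cell axons, was higher in the GCL (3.56 ± 0.35, adjusted p = 1.25e-12). Nes was higher as well (3.70 ± 0.66), and the 3 astrocyte markers, Gfap among them, made up 0.0260% of GCL and 0.00309% of BCL UMIs.

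Over the 12 layer libraries, log2 CPM of the 9 tested genes correlated at 0.902 or more for every pair without Ina, and at 0.794 to 0.917 for pairs with Ina. The 12 points are 3 layers of 4 sections, so that these values describe the shared step between layers. Outside the set, the genes most like Nefl among 11315 were Rgs4 (r = 0.993), Sv2c (0.990) and Nrn1 (0.9895). Those most like Gap43 were Pou4f2 (0.973), Dok5 (0.971) and Tbc1d9 (0.971), and those most like Tppp3 were Atp2b2 (0.992), Cacna1a (0.992) and Ky (0.990).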

How the data were processed

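The deposited files give whole UMI counts per gene, as the authors made them: reads were aligned with STAR 2.7.9a to GENCODE vM27 (human cells: v38), multimapping reads were discarded, featureCounts assigned reads to exons at its stated default settings (by default strand is not used), and UMI-tools 1.1.1 counted each molecule once per gene, after which reads were split by exact barcode match. The authors also removed 2 mouse rRNA genes. No column belonged to a sample outside the series.

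Groups followed the labels. Retinal layers and amacrine cells were fitted apart, each over all its libraries, with edgeR 4.0.16 (R 4.3.3, TMM scaling, quasi-likelihood test). Genes were kept with at least 10 UMIs in all and a CPM worth 3 UMIs at the median library size. That CPM had to be reached in as many libraries as the smallest group holds. The p values were adjusted by Benjamini-Hochberg with a threshold of 0.05. The s.e. is the log2 fold change divided by the square root of F. Biological coefficients of variation were 9.17% and 16.0%. Subunit shares were compared with exact permutation tests that enumerate every split of the libraries. The fit and the permutation test were checked on simulated data, the latter against scipy 1.17.1. DESeq2 1.42.0, other scalings and filters, and each section left out were alternatives.

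Libraries of 1 section are paired by design. The correlation of their deviations from group means was 0.0116 to 0.0493 over 12 layer pairs (0 over 0.1) and 0.0287 to 0.257 over 5 amacrine pairs (2 over 0.1).

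Genomic positions and sequence come from GENCODE vM39 on GRCm39, not the annotation used for counting. The 10 genes, the 9 axon lists and the marker lists were chosen with earlier results of these data known. Named genes are the 10 and, from each axon list, up to 2 per direction with the smallest adjusted p for GCL against BCL. For genes of like pattern, Pearson's r of log2 CPM (prior count 2) was ranked over 12 layer libraries. Intervals and limits for counts cover counting error only. Some items are not reported here.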

Additional observations from a re-analysis of the deposited data

Results flagged for a closer look

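In groups of 4 or 5 libraries, a gap test at the 95% level, which marks about 1 in 20 groups by chance, set 5 values in 4 libraries apart. Nefl was low in TH− section 2, at 98.4 CPM on 17 UMIs, and so was Tubb3 there, at 34.7 CPM on 6 UMIs. Tppp3 was low in TH+ section 5, at 33.0 CPM on 1 UMI. Prph was counted once in TH− section 3, at 7.44 CPM, and once in BCL section 1, at 5.16 CPM, and 0 times in the other libraries of those groups. A lone UMI beside counts of 0 always passes this gap test, so for Prph the chance rate does not hold.

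The study also barcoded a mixed culture of human HEK cells and mouse 3T3 fibroblasts, which enters no comparison here. Thy1 was at 369.9 CPM in 3T3 cells (209 UMIs over 3 wells, s.d. 116) and Tubb3 had 4 UMIs, while the other 8 genes had 0. In HEK cells NEFL was at 84.0 CPM (18 UMIs, s.d. 36.5) and INA at 87.4 CPM (22 UMIs, s.d. 21.3), NEFM had 11 UMIs and the other 7 genes had 0.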

How the results depend on the processing

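Of 41 recomputed counts of called genes, 39 stayed within 1.5 times the reported one, and of 366 recomputed log2 fold changes 357 kept direction and side of the threshold, 2 gained significance and 7 changed sign, the last among differences that were not called. Leaving out each section in turn, these ranged from -0.044 to 0.28 for Nefm and -0.64 to 0.16 for Gap43 between BCL and ONL, and between TH+ and TH− from -0.11 to 0.62 for Nefm, -0.44 to 0.067 for Nefh, -0.19 to 0.0067 for Ina and -0.065 to 1.14 for Gap43. Of 132 recomputed shares, 8 changed sign, none of them called: leaving out sections, Nefl ranged from -1.64 to 2.45 points between GCL and ONL and from -3.85 to 0.271 between BCL and ONL, Nefh from -2.16 to 1.96 between BCL and ONL and Nefm from -1.10 to 3.24 between TH+ and TH−, and Nefl between GCL and ONL was -0.272 without length scaling, -0.648 with canonical lengths and -2.63 per CCC triplet. Without section 2, 2 genes were called between BCL and ONL (1 to 2 leaving out each section), the added one being Thy1. With the section as a replicate block, 1 gene was called between TH+ and TH−, Tppp3 (1.33), and the block changed no other call among the 10 genes, while calls over all genes rose from 50 to 148, and leaving out a section gave 29 to 73. The cause was not tested. Prph, filtered out in the reported fit, was called higher in the GCL with no filter (4.03 and 3.30 against BCL and ONL) and by DESeq2 (3.89 and 3.47). Calls over all genes between BCL and ONL were 2056 higher and 2096 lower in the BCL with edgeR, and 2055 and 1374 with DESeq2. The Nefm share differed between GCL and ONL by 5.003 points without length scaling, 5.40 with canonical lengths and 6.09 per CCC triplet, and between BCL and ONL by 3.12, 3.43 and 4.26, the last 2 scalings of each chosen after seeing the data. With 3 against 3 sections (smallest p 0.1) or paired sections (0.125 for layers, 0.0625 for amacrine cells) the exact tests of shares cannot pass 0.05, so these were judged by whether the difference moved by more than 1 s.d. Gap43 in the BCL, Prph everywhere and all 10 genes in TH+ cells are limited by few UMIs.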
